A study of Mus musculus with 4 samples.

Results

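Krüppel-like factors (KLF) are transcription factors that bind GC-rich and CACCC-type DNA elements through zinc fingers at their C-terminus. The 10 genes followed here were listed by name: *Klf2*, *Klf3*, *Klf4*, *Klf6*, *Klf7*, *Klf9*, *Klf10*, *Klf11*, *Klf12* and *Klf13*, out of 55359 gene identifiers counted. All 10 passed the filter on low counts and are among the 14637 genes tested. They were measured by bulk RNAseq in T8 cells, a line grown out of 1 primary pB-ALL (B-cell precursor leukemia) of an Irf4-/- mouse, so each result describes 1 tumor. The cells depended on IL-7 and were first kept on ST2 stromal cells. Both groups carry the Irf4-/- genotype, a deletion of the gene for IRF4, which is a transcription factor needed for the pre-B cell to leave the cycling stage, and both were transduced with a retrovirus (RV) coding for GFP, either alone (EV-RV, 2 libraries) or together with IRF4 (IRF4-RV, 2 libraries). RNA was taken 24 h after transduction. Whether GFP-positive cells were sorted for these libraries is not given in the sources used here, and the labels do not say whether the libraries come from separate cultures, so p-values measure the spread between these libraries, which may be technical. The label protocols name T11 cells where titles and tissue name T8.

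The KLF family is commonly divided by the partners of the N-terminal part. *Klf2*, *Klf4*, *Klf6* and *Klf7* belong to a group that mostly activates transcription, *Klf3* and *Klf12* bind the corepressor CtBP, and *Klf9*, *Klf10*, *Klf11* and *Klf13* bind the corepressor Sin3a. In lymphocytes, KLF2 is known for keeping resting cells out of the cell cycle and for switching on genes of homing and tissue exit. The comparison asks how this family changes when IRF4 is introduced into Irf4-/- leukemia cells.

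The libraries held 31686715 and 31230223 counts (EV-RV) or 34771970 and 37817752 counts (IRF4-RV), so 3 counts, taken as the floor of detection, correspond to between 0.0824 and 0.0952 CPM (counts scaled to the TMM-adjusted library size, counting error only). *Irf4* reached 242 and 241 CPM in EV-RV against 2822 and 2491 CPM in IRF4-RV, with reads from the vector and from the locus not separated. The EV-RV level was above that of 95.5% of genes tested although that vector codes for GFP alone, and reads over the deleted part cannot be examined in counts per gene, so *Irf4* RNA at the locus does not check the genotype. The B-lineage marker *Cd79a* was high in every library, at 906 to 922 CPM, whereas *Rag1* and *Rag2* had at most 1 count. Of 7 B progenitor markers tested, 0 were higher and 3 lower by edgeR and by DESeq2, with 0 higher and 4 lower at an unadjusted p under 0.05, and 2 to 5 were lower with a library left out. Of the markers of other cells, *Cd8a*, *Ncr1*, *Adgre1*, *Cx3cr1* and *Marco* were at or near 0. On the macrophage list only *Mrc1* (log2 fold change 3.26) was called, and on the endothelial list only *Pecam1* (2.37). Both were picked out after their values were seen. *Cd68*, the other macrophage marker tested, was at 0.476 to 0.797 CPM and was not called. The untested markers had at most 9 counts (macrophage) or 3 counts (endothelial) in any library. Of 11 T and NK cell markers, 3 were tested and 2 were lower. *Trac* was at 18.4 and 19.1 against 11.5 and 11.5 CPM (edgeR adjusted p = 0.00229). The other was *Cd2*, whose call was lost with DESeq2 and with any 1 library left out. The paper uses CD2 protein to stage B-cell progenitors, so *Cd2* is not a marker of other cells alone. The untested T and NK cell markers, *Cd3d*, *Cd3e* and *Cd3g* among them, had at most 7 counts in any library. The erythroid marker *Hbb-bt* was at 7.31 to 9.2 CPM and was not called. The part of these genes in the KLF values was not tested. The 8 stromal markers summed to 41.3 and 76.6 CPM in EV-RV against 41.7 and 186 CPM in IRF4-RV, so that the library IRF4-RV 2 stood apart. The part of stromal reads in the KLF values was likewise not tested, and values without IRF4-RV 2 are given where they differ. In bulk RNA, a change in the share of a cell type and a change in RNA per cell cannot be told apart.

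IRF4-RV was accompanied by higher RNA of *Klf2*, *Klf13*, *Klf3* and *Klf6* and by lower RNA of *Klf10* and *Klf9*. Thus 4 of 10 members were called higher and 2 lower at an FDR of 0.1 with edgeR's quasi-likelihood test. Of all genes tested, 16.0% were called higher, 13.7% lower and 29.7% in either direction. DESeq2 gave the same 6 calls, with 13.8% of its genes higher and 11.6% lower. The members' median log2 fold change was 0.55, while that of all genes tested was 0.01. The members were listed with earlier results of these data known. Over all 13 KLF genes tested, on the list or off it, 5 were higher and 3 lower, with a median of 0.5. The other 4 members, *Klf4*, *Klf7*, *Klf11* and *Klf12*, did not pass. *Klf2* had by far the largest change: 237 of the genes tested rose more. *Klf13* came next, with 836 genes rising more, and *Klf10*, the member with the largest fall, was exceeded by 1138 genes.

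**Figure D1:**
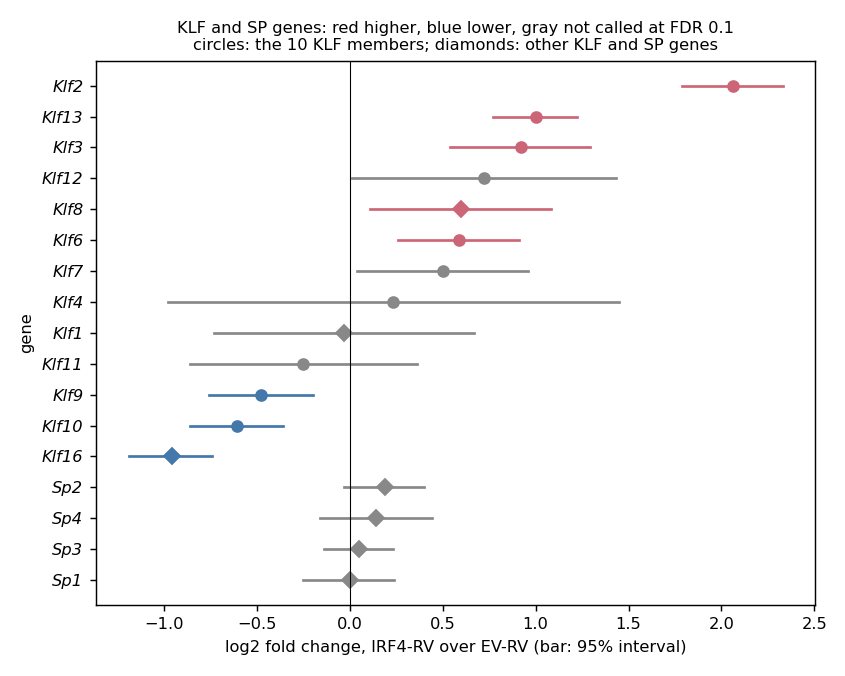
Log2 fold change of each KLF and SP gene tested, IRF4-RV over EV-RV (x axis), with its 95% interval from edgeR as a bar (n = 2 libraries per group). Circles are the 10 members and diamonds other KLF and SP genes, red called higher, blue lower and gray not called. *Klf2* lies apart at 2.06, *Klf9* and *Klf10* lie at -0.48 and -0.61, and the interval of *Klf4* is the widest, from -0.98 to 1.45.

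Start-site sequences were read for the 2 members with the largest rises and for *Klf9*, a member that fell, to set the letters near their starts beside their changes. RefSeq windows on GRCm38.p6 were at hand for 9 of the 10 members, and *Klf10* has no entry. Each run gives the 250 bases before the RefSeq start, 5′ to 3′ on the gene's strand. Capitals mark CACCC, the GC box GGGCGG, the FOXO motif TGTTTAC and the MEF2 motif, searched on both strands. The annotated GENCODE start of *Klf2* lies within its window, as do those of *Klf3*, *Klf6* and *Klf11*. The windows of *Klf7* and *Klf12* lie inside the annotated genes. That of *Klf12*, at 100149797 to 100150046, is far from its GENCODE start at 100284679. These windows are therefore not all upstream sequence by GENCODE.
Klf2 (chr8:72318812-72319061, plus strand): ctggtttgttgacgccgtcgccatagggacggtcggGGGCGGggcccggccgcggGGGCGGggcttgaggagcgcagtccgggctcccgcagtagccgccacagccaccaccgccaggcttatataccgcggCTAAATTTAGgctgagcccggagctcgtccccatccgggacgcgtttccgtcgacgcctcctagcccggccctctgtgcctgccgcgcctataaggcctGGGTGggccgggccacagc
Klf13 (chr7:63938916-63939165, minus strand): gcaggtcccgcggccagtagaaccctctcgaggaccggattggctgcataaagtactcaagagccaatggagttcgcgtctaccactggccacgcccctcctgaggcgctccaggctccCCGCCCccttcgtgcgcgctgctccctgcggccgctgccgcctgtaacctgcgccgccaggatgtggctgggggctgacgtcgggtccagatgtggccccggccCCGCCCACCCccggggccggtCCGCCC
Klf9 (chr19:23140976-23141225, plus strand): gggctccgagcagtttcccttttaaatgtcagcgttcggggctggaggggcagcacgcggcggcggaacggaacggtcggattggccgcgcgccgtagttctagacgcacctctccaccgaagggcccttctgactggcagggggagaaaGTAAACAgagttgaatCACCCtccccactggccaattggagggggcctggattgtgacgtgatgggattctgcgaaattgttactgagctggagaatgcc

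The windows of *Klf2* and *Klf13* were GC-rich, at 71.2% and 71.6%, and that of *Klf9* was at 59.6%, against a median of 52.4% over 32851 windows of 27025 genes. GGGCGG occurred in 7 of the 9 windows and in 32.7% of all windows. CACCC, the element that KLF proteins bind, occurred in 6 of 9 and in 52.0% of all. The *Klf13* window held 3 GC boxes, one of which overlaps its CACCC by a base. A MEF2 motif was found in the *Klf2* window alone among the members and in 0.508% of all windows, and TGTTTAC in the *Klf9* window alone and in 3.17% of all. The ETS-IRF composite element (2.3% of all), the paired IRF element of the interferon response (2.98% of all) and the ETS motif AGGAAGT (7.69% of all), were in none of the 9. The motifs were chosen with the windows in view, and a match describes letters in a window, not binding.

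Among the activators, *Klf2* (ENSMUSG00000055148, chromosome 8, 72319033 to 72321656 on GRCm38) was counted 370 and 291 times in EV-RV against 1471 and 1506 times in IRF4-RV, which is 11.1 and 9.23 against 43.4 and 41.4 CPM. The lower IRF4-RV library was far above the higher EV-RV library. The level went from 10.2 ± 1.32 to 42.4 ± 1.46 CPM (SD, n = 2), a 4.17-fold rise with a 95% interval of 3.46 to 5.02 (log2 fold change 2.06, SE 0.115, edgeR adjusted p = 2.45e-05). Leaving out any 1 library kept the log2 fold change between 1.94 and 2.19. *Klf2* shares no bases with another gene in GENCODE M21, and overlaps in the annotation used for counting are not known.

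*Klf6* (ENSMUSG00000000078, chromosome 13, 5861482 to 5870394), a widely expressed activator known as an early gene of injury and growth signals, was at 27.5 and 20.9 CPM in EV-RV against 34.1 and 38.8 CPM in IRF4-RV. The groups did not overlap, although the EV-RV libraries lay about as far apart as the groups did at their nearest. Its log2 fold change was 0.59 (SE 0.14, edgeR adjusted p = 0.0202) and ranged from 0.41 to 0.79 with 1 library left out. It passed the threshold each time, with adjusted p of at most 0.0627.

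*Klf7* (ENSMUSG00000025959, chromosome 1, 64029447 to 64122282), which acts in neuronal growth and is also expressed in lymphoid progenitors, was at 7.88 and 7.04 CPM in EV-RV against 12.7 and 8.46 CPM in IRF4-RV. Both IRF4-RV libraries were above both EV-RV libraries, but they differed from each other more than the nearest libraries of the groups did. Its log2 fold change of 0.50 (SE 0.197) did not pass (edgeR adjusted p = 0.114). Without IRF4-RV 2 it was 0.77 (edgeR adjusted p = 0.00031), and without IRF4-RV 1 it was 0.16 (edgeR adjusted p = 0.657). *Klf7* shares 3196 exon bases with the gene Gm26649 on the opposite strand, which was not found by name among the counted genes. Since the strand setting of the counting is not given, reads of the pair cannot be told apart.

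*Klf4* (ENSMUSG00000003032, chromosome 4, 55527143 to 55532466), a regulator of pluripotency and of myeloid and B-cell growth arrest, was counted 8 and 10 times in EV-RV against 11 and 12 times in IRF4-RV. These libraries were just above the floor in both groups. The log2 fold change was 0.23 with an interval of -0.98 to 1.45, which spans changes from a fall to 0.506-fold up to a 2.73-fold rise.

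Both CtBP-binding repressors on the list were low in CPM. *Klf3* (ENSMUSG00000029178, chromosome 5, 64803388 to 64832901), a repressor with a part in B-cell subset formation, was counted 160 and 121 times in EV-RV against 286 and 287 times in IRF4-RV. This corresponds to 4.8 and 3.84 against 8.44 and 7.88 CPM, and the groups were well apart. *Klf3* rose 1.89-fold (log2 fold change 0.92, SE 0.162, edgeR adjusted p = 0.00568) and stayed between 0.77 and 1.08 on the log2 scale with 1 library left out. It shares 404 exon bases with the gene Gm20033 on the opposite strand, which had at most 7 counts in a library. The strand setting of the counting is not given.

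*Klf12* (ENSMUSG00000072294, chromosome 14, 99870632 to 100284679), known as a repressor of AP-2 alpha, was counted 57 and 58 times in EV-RV against 126 and 78 times in IRF4-RV. The EV-RV libraries were almost equal and both IRF4-RV libraries lay above them, IRF4-RV 1 by much more. The log2 fold change of 0.72 (SE 0.307) did not pass (edgeR adjusted p = 0.141). It was 1.07 without IRF4-RV 2 (edgeR adjusted p = 0.00537) and 0.25 without IRF4-RV 1 (edgeR adjusted p = 0.715). *Klf7* and *Klf12* thus share a feature: IRF4-RV 1 alone carries most of their difference.

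The Sin3a-binding members moved in both directions. *Klf13* (ENSMUSG00000052040, chromosome 7, 63886351 to 63938915), a regulator of the chemokine gene Ccl5 in T cells, had the most counts of all members, 2768 and 2263 in EV-RV against 5507 and 5323 in IRF4-RV. In CPM these are 83.0 and 71.8 against 163 and 146, so the groups were separated by far more than the spread within them. The level rose from 77.4 ± 7.91 to 154 ± 11.6 CPM (SD, n = 2), a 2.0-fold rise with a 95% interval of 1.7 to 2.34 (SE 0.0981 on the log2 scale, edgeR adjusted p = 0.000357). The log2 fold change lay between 0.90 and 1.10 with 1 library left out.

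*Klf10* (ENSMUSG00000037465, chromosome 15, 38291463 to 38300706), named TIEG1 for its early induction by TGF-beta, was at 22.1 and 19.8 CPM in EV-RV against 14.1 and 13.2 CPM in IRF4-RV. The IRF4-RV libraries were close to each other and clearly below both EV-RV libraries. *Klf10* fell 1.53-fold (log2 fold change -0.61, SE 0.108, edgeR adjusted p = 0.00556) and kept to between -0.69 and -0.54 with 1 library left out. 

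*Klf9* (ENSMUSG00000033863, chromosome 19, 23141226 to 23168134), a target of glucocorticoid and thyroid hormone receptors, was at 30.3 and 28.4 CPM in EV-RV against 23.2 and 18.8 CPM in IRF4-RV. The groups did not overlap, and the IRF4-RV libraries were the more spread. Its log2 fold change was -0.48 (SE 0.12, edgeR adjusted p = 0.0246). Without IRF4-RV 2, the library with the most stromal marker reads, it was -0.33 and did not pass (edgeR adjusted p = 0.124), and without IRF4-RV 1 it was -0.66 (edgeR adjusted p = 0.000626).

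*Klf11* (ENSMUSG00000020653, chromosome 12, 24651274 to 24662789), the TGF-beta-induced relative of *Klf10*, was counted 96 and 68 times in EV-RV against 63 and 86 times in IRF4-RV. It was the only member whose groups overlapped. Its log2 fold change of -0.25 had an interval of -0.86 to 0.36 and did not pass (edgeR adjusted p = 0.547).

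**Figure D2:**
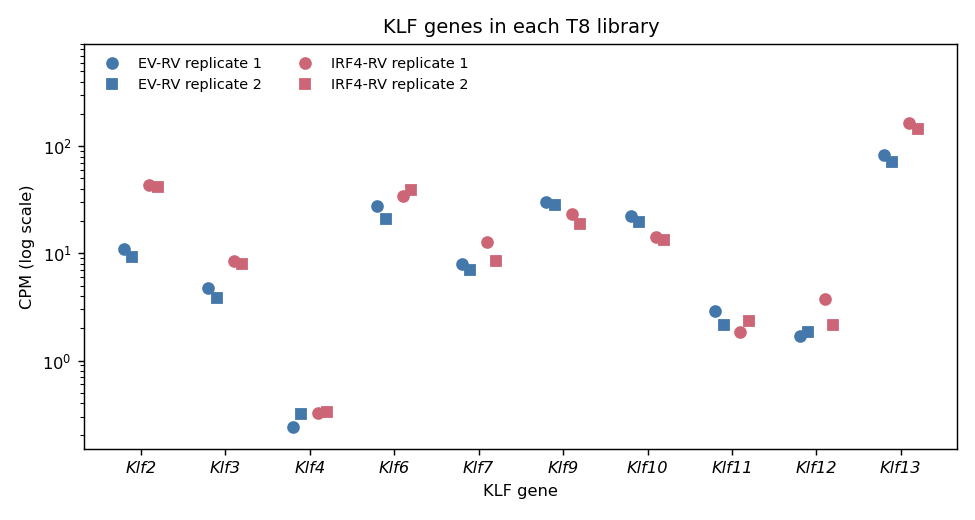
CPM of the 10 KLF genes in each of the 4 libraries, on a log axis, with EV-RV in blue and IRF4-RV in red and replicates 1 and 2 as circle and square. *Klf2* shows the widest gap, from 11.1 and 9.23 to 43.4 and 41.4 CPM, and the points of *Klf11* overlap between the groups.

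**Figure D3:**
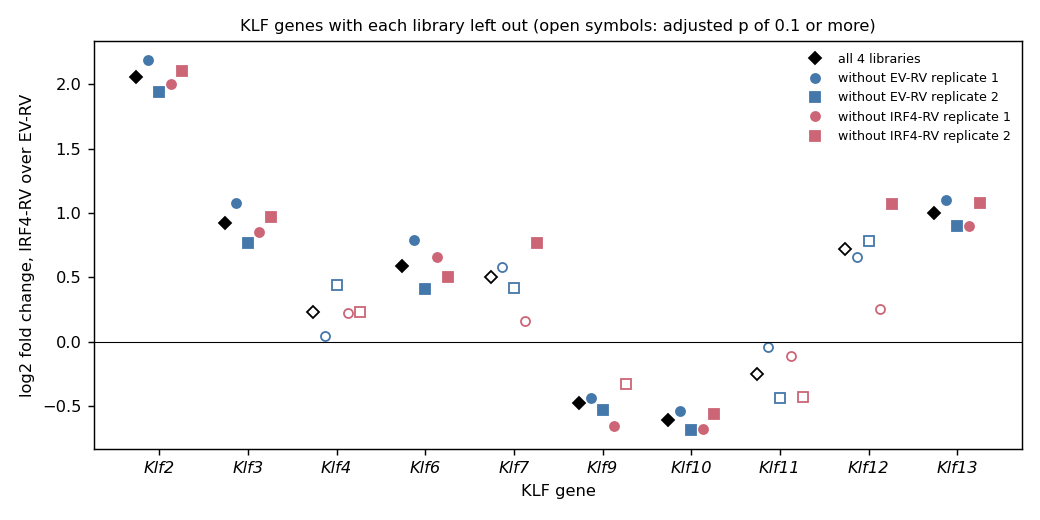
Log2 fold change of each KLF gene (y axis) with all 4 libraries (black diamonds) and after dropping 1 library at a time (colored symbols), open where the adjusted p was 0.1 or more. *Klf2*, *Klf3*, *Klf6*, *Klf10* and *Klf13* kept their calls, and *Klf9* lost its call without IRF4-RV 2. *Klf7* ran from 0.16 to 0.77 and *Klf12* from 0.25 to 1.07, both lowest without IRF4-RV 1 and highest without IRF4-RV 2.

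To compare members with each other, counts were divided by the length of the union of exons (FPKM). With EV-RV, *Klf13* was the highest member at 10.3 ± 1.05 FPKM (SD, n = 2). It was followed by *Klf9* (6.09 ± 0.29), *Klf6* (5.52 ± 1.06), *Klf2* (5.5 ± 0.712) and *Klf10* (5.01 ± 0.389), whose FPKM values lay within the spread of their neighbours. With IRF4-RV, *Klf2* at 23.0 ± 0.792 FPKM and *Klf13* at 20.5 ± 1.54 FPKM were the highest, their libraries being apart by a small margin, and *Klf6* (8.3 ± 0.749 FPKM) was the third. *Klf9* and *Klf10* followed at 4.36 ± 0.645 and 3.28 ± 0.153 FPKM. *Klf7*, *Klf11*, *Klf3*, *Klf12* and *Klf4* were the 5 lowest in both groups, at or below 1.3 FPKM on average. Among these, *Klf11* (0.58 FPKM) was ahead of *Klf3* (0.384) with EV-RV, and *Klf3* (0.726 FPKM) was ahead of *Klf11* (0.486) with IRF4-RV.

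The make-up of the family therefore differed. Of the FPKM summed over the 10 members, *Klf2* made up 16.1% and 15.6% in EV-RV against 36.5% and 37.1% in IRF4-RV. *Klf10* went from 14.2% and 14.8% to 5.25% and 5.24%, and *Klf9* from 16.9% and 18.4% to 7.48% and 6.47%. The share of *Klf13*, despite its rise, was much steadier, at 29.6% and 29.8% against 33.5% and 32.1%. The sum itself was 37.3 and 32.0 FPKM in EV-RV against 64.5 and 60.4 FPKM in IRF4-RV. The shares are tied to one another through this sum, so they fell more than the RNA of *Klf10* and *Klf9* did (1.53-fold and 1.4-fold). These shares were read from 2 libraries per group and were not tested.

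**Figure D4:**
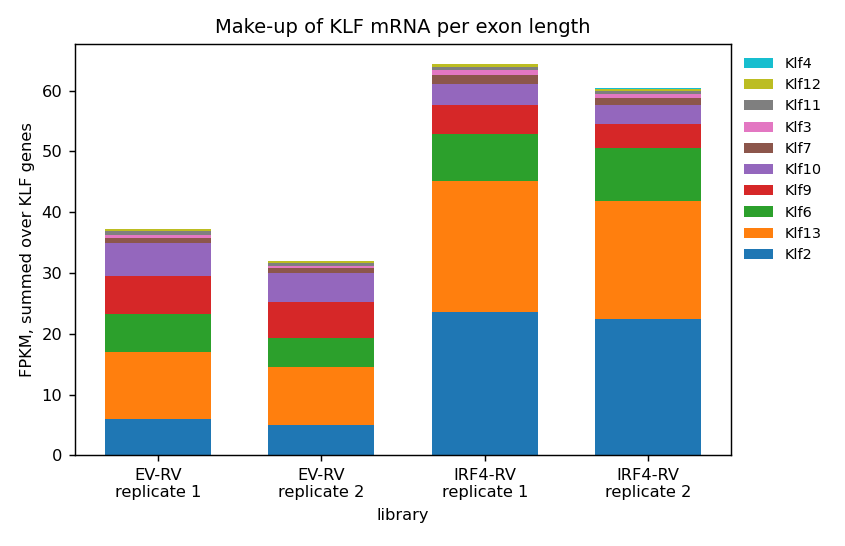
FPKM summed over the 10 KLF genes (y axis), 1 stacked bar for each library, with 1 color for each gene. The bars reach 37.3 and 32.0 FPKM in EV-RV against 64.5 and 60.4 FPKM in IRF4-RV, and the *Klf2* segment at the bottom makes up 36.5% and 37.1% of the latter.

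Of the 7 KLF genes off the list, 3 could be tested. *Klf16*, another Sin3a-binding member, was at 35.0 and 36.8 CPM in EV-RV against 17.6 and 19.3 CPM in IRF4-RV. It fell with a log2 fold change of -0.96 (SE 0.0967, edgeR adjusted p = 0.000389), below that of each listed member, a difference that was not tested. *Klf8*, the remaining CtBP-binding repressor, had 70 and 71 counts in EV-RV against 115 and 116 in IRF4-RV, a log2 fold change of 0.60 (edgeR adjusted p = 0.0813). This call was lost with DESeq2 and with any 1 library left out, where edgeR adjusted p was between 0.132 and 0.265. *Klf1*, the erythroid member, differed by -0.03 on the log2 scale with an interval of -0.73 to 0.67, and *Klf5*, *Klf14*, *Klf15* and *Klf17* had at most 3 counts.

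By group, and beside the 16.0% higher and 13.7% lower of all genes tested, 2 of the 5 activator genes tested were higher and 0 lower by edgeR. At an unadjusted p under 0.05, 3 were higher and 0 lower, and DESeq2 gave 2 and 0. Of the 5 Sin3a-binding genes, 1 was higher and 3 were lower. The CtBP-binding genes *Klf3* and *Klf8* were higher of 3 tested, *Klf12* being the other. The SP factors, which have the same zinc finger type and bind GC boxes, gave 0 calls among 4 genes tested by edgeR, 0 at an unadjusted p under 0.05 and 0 by DESeq2, where 29.7% of all genes were called by edgeR, so that 0 of 4 does not set them apart. *Sp1* was at 115 and 104 CPM in EV-RV against 120 and 99.0 CPM in IRF4-RV, with an interval of its log2 fold change of -0.25 to 0.24. The intervals of *Sp2* (-0.03 to 0.40), *Sp3* (-0.14 to 0.23) and *Sp4* (-0.16 to 0.44) also left out a change as large as that of *Klf3*. *Sp9*, with 14 and 1 counts in EV-RV against 6 and 3 in IRF4-RV, was not tested.

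Genes that act with, upstream or downstream of the KLF members were read from lists, each against the shares of all genes given above. Of 10 cofactors, 2 were higher and 3 lower, and 0 were higher and 4 lower with library size only. The corepressor *Ctbp2*, partner of *Klf3* and *Klf12*, was at 45.3 and 45.8 CPM in EV-RV against 31.4 and 30.1 CPM in IRF4-RV (log2 fold change -0.57, edgeR adjusted p = 0.00273), while *Ctbp1* differed by -0.10 and did not pass (edgeR adjusted p = 0.361). *Sin3a*, the partner of *Klf9*, *Klf10*, *Klf11* and *Klf13*, differed by -0.09 (edgeR adjusted p = 0.703). The LIM-domain cofactor *Fhl3* fell by 0.73 on the log2 scale. The acetyltransferase *Kat2b* rose by 0.44, a call that was lost with DESeq2, with library size only, without EV-RV 2 and without IRF4-RV 2, with edgeR adjusted p of up to 0.181 when a library was left out. The deacetylase *Hdac2* fell by 0.31, which did not pass without IRF4-RV 1 (edgeR adjusted p = 0.116).

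KLF2 transcription is known to be driven by the MEK5-ERK5 kinase pathway through MEF2 factors, and by FOXO1. Of the 9 genes on this list, 5 were higher and 0 lower by edgeR, with 5 and 0 both at an unadjusted p under 0.05 and by DESeq2. *Mef2c* went from 59.1 and 54.8 to 151 and 132 CPM (log2 fold change 1.31, edgeR adjusted p = 6.47e-05). *Foxo1* went from 30.2 and 29.9 to 67.4 and 61.2 CPM (log2 fold change 1.10, edgeR adjusted p = 0.000144). *Foxo3* and *Mef2d* rose by 0.54 and 0.50 on the log2 scale. The fifth call, *Map3k2* (0.32), was lost with library size only and without EV-RV 1, EV-RV 2 or IRF4-RV 1. The kinases that give the pathway its name, *Map2k5* (MEK5) and *Mapk7* (ERK5), had log2 fold changes of -0.02 (edgeR adjusted p = 0.88) and -0.12 (edgeR adjusted p = 0.506) and did not pass, nor did *Map3k3* at -0.02. These 4 kinases were named after their values were seen. Among 6 ubiquitin ligases with known parts in KLF turnover, *Btrc* alone was called, rising by 0.94 from 50.6 and 47.6 to 94.8 and 93.0 CPM.

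Genes of lymphocyte homing and exit described as KLF2 targets were higher in 4 of 5 tested and lower in 0, by edgeR and by DESeq2, and 0 were lower at an unadjusted p under 0.05. *S1pr1*, the receptor for exit along sphingosine-1-phosphate, went from 9.35 and 10.3 to 16.1 and 15.5 CPM (log2 fold change 0.69, edgeR adjusted p = 0.00397). *Ccr7*, the homing receptor for lymph node chemokines, went from 44.2 and 47.8 to 318 and 320 CPM, and *S1pr4*, another sphingosine-1-phosphate receptor, from 24.6 and 28.9 to 174 and 176 CPM. Their log2 fold changes were 2.79 and 2.71, and the groups of all 3 genes were far apart. The other call was *Cd44*, which rose by 0.67 on the log2 scale (edgeR adjusted p = 0.0025). *Itgb7*, named after its values were seen, did not pass, with a log2 fold change of 0.14 and an interval of -0.42 to 0.70.

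**Figure D5:**
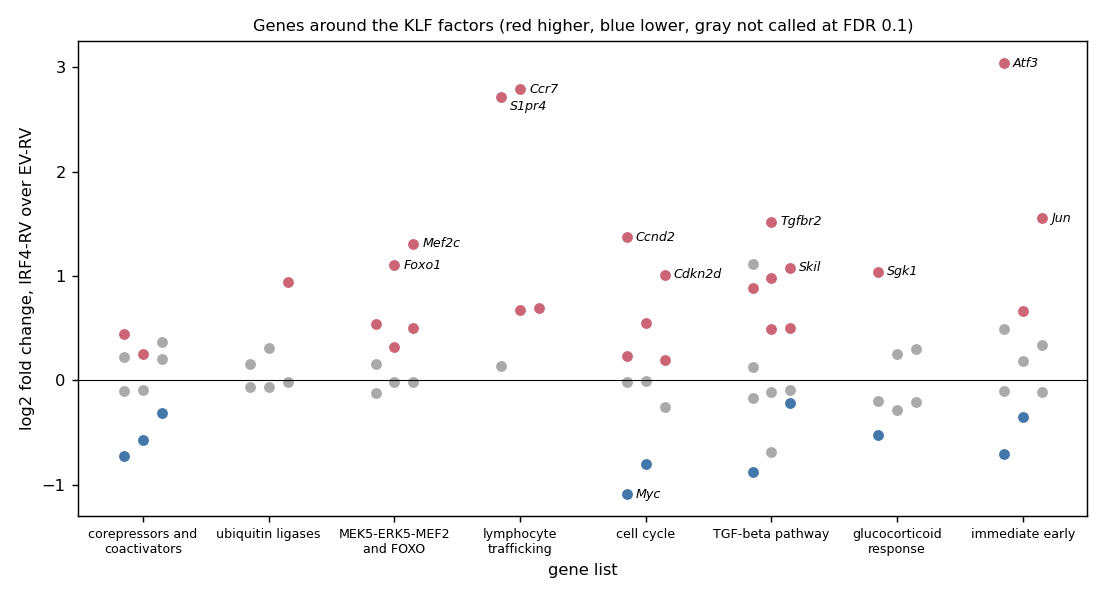
Log2 fold change, IRF4-RV over EV-RV (y axis), of each gene tested on 8 lists of cofactors, ligases, regulators and response genes (x axis), red called higher, blue lower and gray not called at an FDR of 0.1. *Atf3* at 3.04, *Ccr7* at 2.79 and *S1pr4* at 2.71 lie highest, and *Myc* is the lowest point among the cell cycle genes.

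Of 10 cell cycle genes tested from those linked to KLF factors, 5 were higher and 2 lower, and 3 to 5 were higher with 1 library or setting changed. *Ccnd2* rose by 1.37 and *Cdkn2d* by 1.01 on the log2 scale, whereas *Myc* fell by 1.09 and *Ccnd3* by 0.80. *Klf10* and *Klf11* are early TGF-beta response genes. Of 14 genes of that pathway, 6 were higher and 2 lower. The receptor *Tgfbr2* rose from 59.6 and 55.3 to 175 and 155 CPM and the Smad antagonist *Skil* by 1.08 on the log2 scale. *Id2* rose by 0.98, whereas *Id3* fell by 0.88 (edgeR adjusted p = 0.00537). The other lower call, *Smad2* (-0.22), was lost with DESeq2, which gave 6 higher and 1 lower. The *Smad2* call was also lost when genes of at least 1 count were kept and with any 1 library left out. *Klf10* fell and *Klf11* did not pass.

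*Klf9* is a glucocorticoid target, and of 7 other genes tested on that list 1 was higher and 1 lower. *Fkbp5* fell by 0.52 (edgeR adjusted p = 0.00262), and its groups did not overlap. *Sgk1* rose by 1.04 (edgeR adjusted p = 0.0376) but did not pass without EV-RV 2 or without IRF4-RV 2, with edgeR adjusted p of up to 0.147. *Klf4*, *Klf6* and *Klf10* can respond to growth signals as immediate early genes do. Of 10 such genes tested, 3 were higher and 2 lower. *Atf3* went from 2.97 and 2.79 to 21.9 and 25.5 CPM and *Egr1* fell by 0.71 on the log2 scale. *Jun*, at 1.05 and 1.05 against 1.59 and 4.53 CPM, and *Egr2* lost their calls with some libraries left out, *Jun* without IRF4-RV 2 or without either EV-RV library and *Egr2* without EV-RV 1 or without IRF4-RV 1.

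The genes whose values over the 4 libraries were most like those of *Klf2* were sought by the Euclidean distance of log2(CPM + 1) from the EV-RV mean. The search covered 8582 genes with a mean of at least 10 CPM over the 4 libraries. The nearest were *Themis2* at a distance of 0.08, *Haao* at 0.0954 and *Gbp2* at 0.102. *Themis2* was counted 683 and 565 times in EV-RV against 2591 and 2682 times in IRF4-RV. *Haao* was counted 123 and 102 times against 577 and 610, and *Gbp2* 230 and 190 times against 923 and 964. Both met the filter only through IRF4-RV, so their likeness to a rising gene is partly set by it. For *Klf10* the nearest were *Uhrf1* (0.037), *Pcbd2* (0.0406) and *Prkch* (0.0427). This likeness rests on 4 libraries and describes them only.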

How the data were processed

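Reads were aligned by the authors to GRCm38 with STAR (2.4.0j) and counted per gene with featureCounts, and the authors deposited raw counts without normalization. How strand and multi-mapping reads were handled is not given in the sources used here. Of 55359 identifiers, 52083 were matched to GENCODE M21 for symbols, coordinates and exon lengths, and the other 3276 held 0.203 to 0.486% of a library's counts. Groups were taken from the sample labels. Genes passing filterByExpr were tested in R 4.3.3 with edgeR 4.0.16 (TMM, quasi-likelihood F test, Benjamini-Hochberg over 14637 genes, FDR 0.1, condition only). Intervals are at 95%. TMM factors were between 0.964 and 1.05. Replicates differed by more than counting noise, with chi-square per degree of freedom of 14.1 (EV-RV) and 13.1 (IRF4-RV), and were kept apart.

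The members and lists were chosen with earlier results of these data known. Named genes are all members and other KLF and SP genes with at least 10 counts in a library. For each other list they are up to 4 genes with the largest change past the FDR and the partners *Ctbp1*, *Ctbp2*, *Sin3a* and *S1pr1*. For the members with the largest rise and fall, the 3 genes most like each are named, among those with a mean of at least 10 CPM over the 4 libraries. Of the genes so listed, 2 are not reported here and were left out of the list counts. Alternatives were DESeq2 1.42.0, other scalings and filters, a replicate block, an FDR of 0.05 and leaving out each library, where the lone library left in a group is assumed to vary like those of the other group. On simulated data of 14637 genes with 200 changed, each 2-fold up or down, edgeR recovered 74% at 8.07% false calls. The spread of each gene was set by the fitted trend. Smaller changes, and changes in as many genes as were called here, were not simulated. Promoter windows are RefSeq, GRCm38.p6.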

Additional observations from a re-analysis of the deposited data

How the results depend on the processing

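Over all alternatives, 98 member values were computed, of which 91 kept direction and side of the threshold, 6 passed that had not, 1 no longer passed and 0 reversed. The number of KLF members higher was 4, and it was 6 (with *Klf7* and *Klf12* added) when genes of at least 1 count were kept or without IRF4-RV 2. The number lower was 2, and 1 to 2 with a library left out, *Klf9* being lost without IRF4-RV 2. Over all genes, leaving out a library gave 1870 to 2017 higher and 1569 to 1703 lower genes. With library size only, 37.8% of calls were higher instead of 53.8%, and the median of all genes moved from 0.01 to -0.08 on the log2 scale, with the same 4 and 2 member calls.

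The replicate numbers are shared in the labels without a stated common culture or day, and deviations of same-numbered libraries correlated with r = 0.295 over 14637 genes. With the replicate number as a block, 3426 genes (23.4%) were higher and 2968 (20.3%) lower, and 6 members were higher and 2 lower, *Klf7* (edgeR adjusted p = 0.00203) and *Klf12* (0.031) being added. With 8 to 12 counts, *Klf4* is the member whose comparison depth limits.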
